A study of Homo sapiens with 9 samples.

Results

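Complement is a cascade of plasma proteins that marks targets and can open pores in membranes. The classical and lectin routes start with recognition proteins that switch on serine proteases, the alternative route amplifies cleavage of C3, and all of them lead to the terminal proteins C5 to C9, which assemble into the membrane attack complex. Most of these proteins, and the soluble inhibitors that hold the cascade in check, are made by hepatocytes and secreted, while CD46, CD55 and CD59 protect the cell's own surface. The 36 genes described here are components of the classical, lectin, alternative and terminal routes, soluble and membrane regulators, and the receptors of the fragments C3a and C5a. They were picked by name and role, not by a threshold on measured values, out of the 58735 genes of the deposited tables. Earlier results of these data were known at that point, so counts of called members give no independent support for a change in complement.

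RNA was sequenced from 9 libraries of Huh-7, a human hepatoma cell line, in 3 groups of 3. The groups were unedited Huh-7 cells (control), clone Ako-3, in which APOB was knocked out with Cas9, and clone Mko-3, in which MTTP was knocked out. APOB encodes the structural protein of secreted lipoproteins and MTTP the transfer protein that loads it with lipid. All cells were grown in DMEM with fetal bovine serum and then kept in medium without serum overnight before RNA was extracted, and poly(A) RNA was sequenced. Each knockout was 1 clone, so an effect of the deleted gene and a property of the clone cannot be told apart. The labels call the libraries biological replicates without naming separate cultures, so p-values measure the spread between these libraries, which may be partly technical. The Mko-3 libraries have sample numbers far from those of the other 6, and whether all 9 were prepared and sequenced together is not given.

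The libraries held 14638727 to 20179760 counts. APOB was at 179 to 258 FPKM (fragments per kilobase of gene length, scaled for library size) in control libraries and at 83.6 to 94.6 in Ako-3, and MTTP was at 111 to 121 FPKM in control libraries and at 15.3 to 16.6 in Mko-3, so both labels matched the targeted transcript. The summed level of 9 hepatocyte markers was 5033 to 5206 FPKM in control, 5869 to 6158 in Ako-3 and 4887 to 5112 in Mko-3. It was highest in Ako-3. There 7 of the 9 markers were higher than control and 0 lower at an adjusted p of at most 0.05 in edgeR's quasi-likelihood test. Over all genes tested, 25.5% were higher and 24.4% lower at that adjusted p. In Mko-3, 3 of the 9 were higher than control and 3 lower, where 26.9% and 27.1% of all genes were. The sum there joins shifts in both directions. Mean ALB was 2547 FPKM in control and 1833 in Mko-3, while mean AFP was 1050 in control and 1840 in Mko-3. Of 9 myeloid markers, CD14 and LYZ were the only ones tested, and C1QA and C1QC, which macrophages express, had 0 counts in every library. The myeloid list summed to 150 to 163 FPKM in control, 186 to 203 in Ako-3 and 188 to 202 in Mko-3, nearly all of it LYZ. Endothelial markers, mostly PECAM1, summed to 9.93 to 11.3 FPKM in control, 13.5 to 14.7 in Ako-3 and 7.34 to 8.02 in Mko-3. Stellate or fibroblast markers summed to 0.531 to 1.03 FPKM over the libraries. In bulk RNA, fewer cells with a transcript and less of it per cell cannot be told apart. Mitochondrial transcripts were 5.52 to 6.17% of counts in control, 7.06 to 7.40% in Ako-3 and 5.75 to 5.82% in Mko-3.

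Of the 36 genes, 30 had enough counts to be tested in every comparison. The 6 others were FCN3, CFP, C9, CFHR3, CFHR4 and C3AR1. All 36 genes together held 1.01 to 1.13% of all counts in each library, and 47.8 to 58.3% of that was C3 alone. Levels of the tested genes spanned more than 3 orders of magnitude, with mean control values of 631 FPKM for C3, 394 for VTN and 311 for CLU at the top, and 0.303 for C6, 0.317 for MASP2 and 0.415 for C7 at the bottom. Levels between genes are compared in FPKM, which divides by gene length, and fold changes come from edgeR's quasi-likelihood test on the counts.

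**Figure D1:**
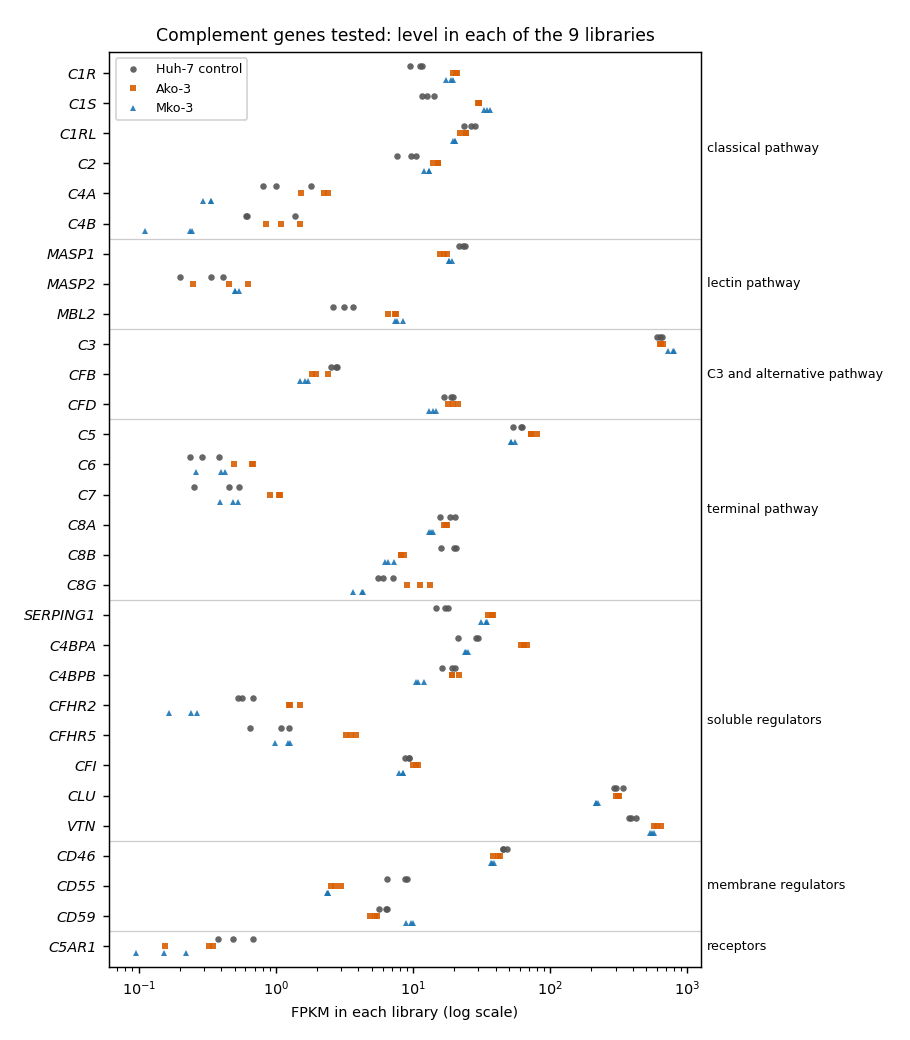
Level of the 30 tested complement genes in each library, in FPKM on a log scale, grouped by role, with grey circles for the 3 control libraries, orange squares for Ako-3 and blue triangles for Mko-3. C3, VTN and CLU lie far above the other genes in all groups, and the points of C4A, C4B and CFHR2 are lowest in Mko-3.

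A gene was called when its log2 fold change was at least 1 in size and its adjusted p at most 0.05. In Ako-3 against control, 8 of the 30 tested members were called higher, where 3.52% of the 15787 genes tested were, and 2 were called lower, where 5% of all genes were. In Mko-3 against control, 2 members were called higher, where 3.82% of 15745 genes were, and 6 were called lower, where 7.22% were. Of those called lower, CFHR2 and C5AR1 passed the filter on counts through the control group. At the adjusted p alone, 14 members were higher and 7 lower in Ako-3 (25.5% and 24.4% of all genes), and 8 were higher and 16 lower in Mko-3 (26.9% and 27.1% of all genes). The median log2 fold change of the tested members was 0.37 in Ako-3 and -0.23 in Mko-3, while that of all genes tested was -0.01 in both. In Ako-3, 20 of 30 tested members lay above 0 and in Mko-3 12 of 30. Groups without overlap were common over all genes. Against control, FPKM values did not overlap in 57.6% of all genes tested in Ako-3 and in 60.7% in Mko-3. Of the 30 members, 14 lay wholly above and 7 wholly below control in Ako-3, and 9 above and 16 below in Mko-3. The 3 control libraries serve both comparisons, so their values are given side by side and no agreement between them is counted as support.

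The clones were also compared with each other. In Mko-3 against Ako-3, 0 members were called higher and 7 were called lower, where 2.26% and 3.47% of the 15528 genes tested were. DESeq2 called 0 members higher as well, and edgeR gave 4 members higher at an unadjusted p under 0.05, the same number as at the adjusted p alone. At the adjusted p alone 22 members were lower in Mko-3 than in Ako-3, where 21.1% of all genes were higher and 20.6% lower. The median of the members was -0.35 against 0.005 for all genes, and 24 of 30 lay below 0. The FPKM values of the clones did not overlap in 49.8% of all genes tested. Of the members, 4 lay wholly above and 20 wholly below Ako-3. With 3 libraries against 3, an exact permutation test of 1 gene cannot give a p below 0.1, so only the fits across all genes can pass the threshold.

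**Figure D2:**
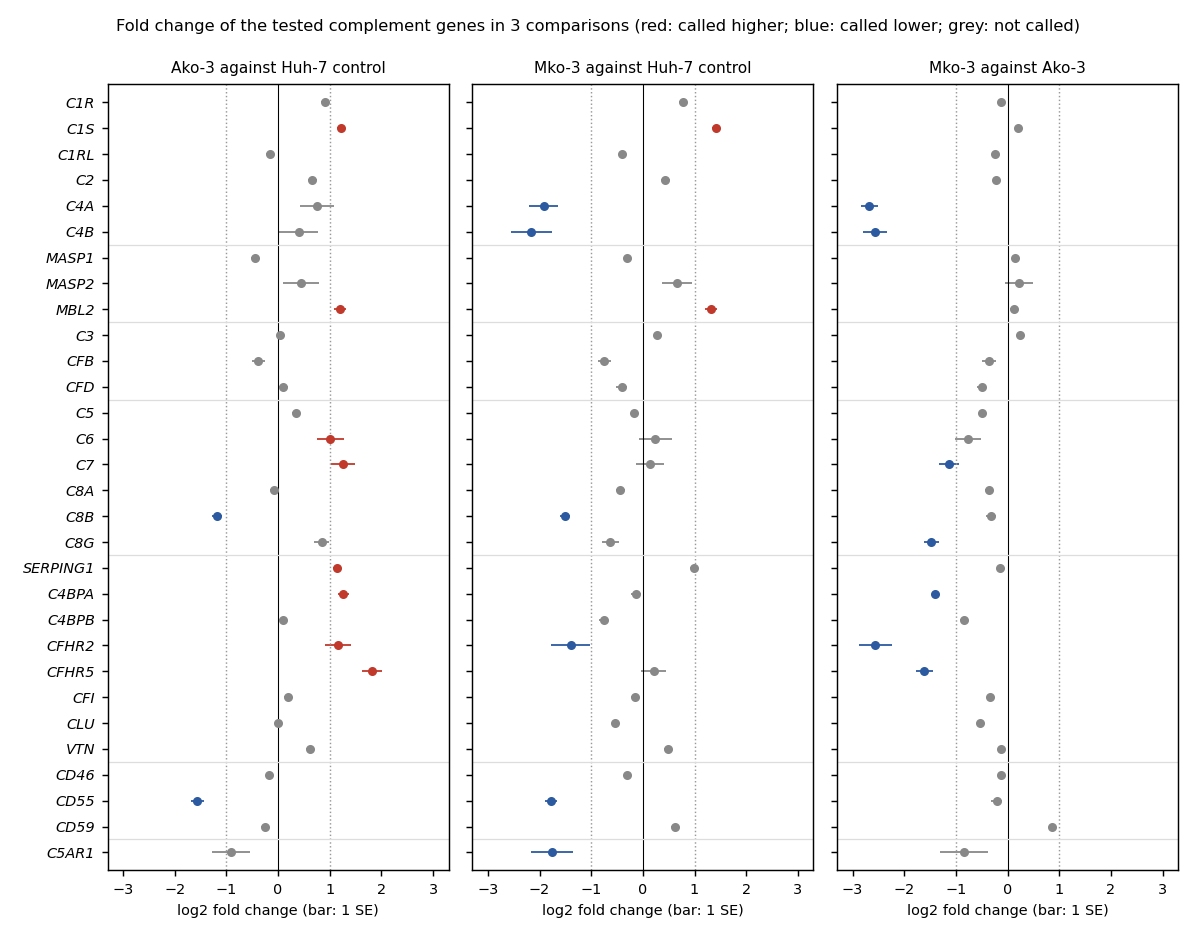
Log2 fold change with 1 SE of the 30 tested complement genes in the 3 comparisons, with dotted lines at a log2 fold change of 1 in either direction. C1S and MBL2 are called higher (red) and C8B and CD55 lower (blue) in both clones against control, while in the third panel every called gene is lower in Mko-3 than in Ako-3.

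Counting both comparisons with control, 4 members were called in the same direction in both clones, with C1S and MBL2 higher and C8B and CD55 lower. The share of all genes called in both clones was not counted, and both comparisons use the same control libraries. CFHR2 alone was called in opposite directions. A further 5 were called in Ako-3 and not in Mko-3, and 3 in Mko-3 and not in Ako-3. A call in a single clone is not by itself a difference between the clones. Of these genes, SERPING1, C6 and C5AR1 were not called in Mko-3 against Ako-3, at -0.15, -0.77 and -0.84 in log2. The promoters of MBL2, C8B and CD55, the genes of the 4 that move together in both clones for which the RefSeq table used here has an entry, are shown as the sequence around the RefSeq start. No entry was found for C1S. These starts are not the ends of the gene models in the files: those of C8B and CD55 lie inside the gene as the files give it, and that of MBL2 lies upstream of it. The sequences run from 250 bases before to 50 bases after the RefSeq start in GRCh38.p14, 5′ to 3′ on the strand of the gene, at chr10:52772735-52773034 (minus strand) for MBL2, chr1:56965966-56966265 (minus strand) for C8B and chr1:207321428-207321727 (plus strand) for CD55, with matches to the motifs named next in capitals.
MBL2: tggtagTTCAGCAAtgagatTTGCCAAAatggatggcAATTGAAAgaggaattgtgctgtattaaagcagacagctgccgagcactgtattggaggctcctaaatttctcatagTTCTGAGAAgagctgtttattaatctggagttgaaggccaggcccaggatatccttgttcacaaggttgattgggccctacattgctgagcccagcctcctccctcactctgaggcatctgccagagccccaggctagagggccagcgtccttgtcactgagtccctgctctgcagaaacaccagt
C8B: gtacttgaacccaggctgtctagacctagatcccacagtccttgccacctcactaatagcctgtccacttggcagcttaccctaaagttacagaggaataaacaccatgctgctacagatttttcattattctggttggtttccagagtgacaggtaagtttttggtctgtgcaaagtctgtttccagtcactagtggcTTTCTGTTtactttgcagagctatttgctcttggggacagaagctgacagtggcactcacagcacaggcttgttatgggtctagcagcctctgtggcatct
CD55: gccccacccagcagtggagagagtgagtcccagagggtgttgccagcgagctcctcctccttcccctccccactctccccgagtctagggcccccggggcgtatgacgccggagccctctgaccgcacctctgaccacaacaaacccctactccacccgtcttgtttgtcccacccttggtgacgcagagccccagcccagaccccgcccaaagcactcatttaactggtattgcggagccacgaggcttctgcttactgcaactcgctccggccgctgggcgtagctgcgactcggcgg

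The 7 patterns of letters searched, on both strands of 35116 promoters of 300 bases, belong to factors known to act on acute phase and liver genes or to the core promoter. TTCNNNGAA, a STAT element, stood in 7.66% of all promoters and in 7 of the 24 members' promoters in the table, those of C1RL, C7, CD59, CFB, MASP2, MBL2 and VTN. TTNNGNAA, a C/EBP element, stood in 36.8% of all and in 11 of 24. AANNGAAA, the core of an IRF element, stood in 22.8% and in 9 of 24, and GGNNTTTCC, the core of an NF-kappaB element, in 6.26% and in 2 of 24, C5 and MASP1. GTTAATNAT, part of an HNF1 site, stood in 0.792% and in 1 of 24, C4BPA, while CAAAGTCCA, an HNF4 element, stood in 0.384% and in 0 of 24, and TATAAA in 11.5% and in 3 of 24. Counting from the RefSeq start, MBL2 held a STAT match at -136, C/EBP matches at -244 and -230 and an IRF match at -213, none of which overlap. C8B held an IRF match at -51, and CD55 held none of the patterns. These are matches of letters and not evidence of binding. The other members without an entry were C4A, C4B, FCN3, C3, C8G, SERPING1, CFHR2, CFHR3, CFHR4, CFHR5 and CLU.

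In the classical route C1S rose in both clones and C4A and C4B fell in Mko-3. C1S, the serine protease of the first complement component that cleaves C4 and C2, lies at chr12:6988259-7071032 on the plus strand (hg38, as are all gene positions here, which come from the files). It was at 12.6, 11.6 and 14.2 FPKM in the control libraries, at 30.4, 30.1 and 29.6 in Ako-3, and at 34.9, 32.7 and 36.2 in Mko-3. Every library of either clone was above every control library. Its log2 fold change was 1.22 ± 0.07 (SE) in Ako-3 (adjusted p = 3.9e-11) and 1.42 ± 0.07 in Mko-3 (adjusted p = 1.8e-12). C1R, the protease that activates C1S, had control values of 11.2, 9.49 and 11.5 FPKM, and reached 19.4 to 21 in Ako-3 and 17.3 to 19.7 in Mko-3. Both clones again lay wholly above control, but the estimates of 0.91 ± 0.08 in Ako-3 (adjusted p = 6.6e-09) and 0.78 ± 0.08 in Mko-3 (adjusted p = 3.8e-08), in log2, were below the threshold on size. The ratio of C1S to C1R within a library was 1.13 to 1.23 in control, 1.43 to 1.52 in Ako-3 and 1.83 to 1.89 in Mko-3, and the groups did not overlap.

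C1RL, a related protease whose gene overlaps the start of C1R on the same strand, was not called. It was at 23.5 to 28.2 FPKM in control, 21.9 to 24.4 in Ako-3 and 19.7 to 20.4 in Mko-3, and differed from control by -0.16 in log2 in Ako-3 (adjusted p = 0.083) and by -0.39 in Mko-3 (adjusted p = 6.7e-05). Of the 150-base windows of the canonical C1R transcript in GENCODE release 44, 20.5% also occur in a C1RL transcript, so some reads of the pair may not have been assigned. C2, the protease part of the classical convertase, had 7.65 to 10.5 FPKM in control, 14 to 15.3 in Ako-3 and 12.1 to 13.1 in Mko-3. Its estimates of 0.66 in Ako-3 (adjusted p = 1.3e-05) and 0.44 in Mko-3 (adjusted p = 0.00057), in log2, passed the adjusted p and not the threshold on size.

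Of all members, C4A had the largest difference between the clones. C4A and C4B, near-identical neighbours that encode the fourth component, lie at chr6:31982024-32002681 and chr6:32014795-32035418 in the hg38 positions of the files. Their canonical transcripts differ at 13 of 5427 aligned bases, and 83.7% of the 150-base windows of either occur in the other, so reads that cover a difference decide which gene is counted. The stretch with most differences, 45 bases across exons 26 and 27 of 41 (chr6:31996069-31996208 in C4A and chr6:32028807-32028946 in C4B, GRCh38, plus strand, the intron left out), is shown with the 5 differing bases in capitals.
C4A: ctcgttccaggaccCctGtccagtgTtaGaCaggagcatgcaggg
C4B: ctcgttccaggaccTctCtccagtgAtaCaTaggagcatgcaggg

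C4A was at 1.01, 0.801 and 1.81 FPKM in the control libraries, at 2.38, 2.26 and 1.52 in Ako-3, and at 0.297, 0.338 and 0.334 in Mko-3. C4B was at 0.608, 0.612 and 1.37 FPKM in control, at 1.08, 1.5 and 0.847 in Ako-3, and at 0.243, 0.11 and 0.235 in Mko-3. For both genes all Mko-3 libraries were below all others, while Ako-3 overlapped with control, where the third library stood above the other ones. In Mko-3 the log2 fold change against control was -1.92 ± 0.28 for C4A (adjusted p = 4.8e-05) and -2.16 ± 0.39 for C4B (adjusted p = 0.00083). Against Ako-3 it was -2.68 ± 0.16 (adjusted p = 3.4e-23) and -2.57 ± 0.23 (adjusted p = 1.4e-12). In Ako-3 against control the values were 0.75 (adjusted p = 0.11) and 0.40 (adjusted p = 0.43), and without the third control library C4A was called higher, at 1.18 (adjusted p = 0.00016). When the counts of both genes were added and tested as 1 gene, a test chosen after seeing the data, Mko-3 was lower than control by -2.02 ± 0.36 (adjusted p = 0.0029) and lower than Ako-3 by -2.64 ± 0.15 (adjusted p = 1e-17), so these calls did not rest on the split of reads between them. In Mko-3 the counts were 37 to 43 for C4A and 14 to 31 for C4B. C4A also shares exonic bases with STK19 and with the antisense gene C4A-AS1, and C4B with C4B-AS1, and the counting is not stated to use strand.

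In the lectin route MBL2 rose in both clones. MBL2, which encodes mannose-binding lectin, a sugar-binding recognition protein, lies at chr10:52765380-52771700. It was at 2.62, 3.67 and 3.12 FPKM in control, at 7.51, 7.42 and 6.57 in Ako-3, and at 7.41, 8.45 and 7.64 in Mko-3. The clones overlapped with each other and lay wholly above control. Expressed in log2, the rise was 1.19 ± 0.12 in Ako-3 (adjusted p = 7.2e-08) and 1.31 ± 0.12 in Mko-3 (adjusted p = 6.2e-09), and the difference between the clones was 0.12, with a 95% interval of -0.04 to 0.28.

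The genes of the proteases that mannose-binding lectin activates were not called in any comparison. MASP1 had 21.6 to 24 FPKM in control, 15.8 to 17.7 in Ako-3 and 18.3 to 19.2 in Mko-3, and its log2 values of -0.45 in Ako-3 (adjusted p = 7e-06) and -0.31 in Mko-3 (adjusted p = 0.00016) passed the adjusted p alone. MASP2, which cleaves C4 and C2 in this route, was counted only 13 to 44 times per library, with log2 estimates of 0.44 in Ako-3 (adjusted p = 0.31) and 0.66 in Mko-3 (adjusted p = 0.065). FCN3, which encodes another recognition protein, had 3 counts in 1 control library and 0 elsewhere.

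C3, the component on which all routes converge, was the most abundant member in every library. It was at 632, 603 and 658 FPKM in control, at 668, 647 and 635 in Ako-3, and at 787, 727 and 797 in Mko-3. Ako-3 overlapped with control, with a log2 fold change of 0.04 and a 95% interval of -0.07 to 0.15 (adjusted p = 0.59). Mko-3 lay above both other groups, by 0.28 ± 0.06 against control (adjusted p = 0.00028) and by 0.24 ± 0.03 against Ako-3 (adjusted p = 2.4e-09), below the threshold on size. Its share of the members' counts was 47.8 to 49.4% in Ako-3, 50.3 to 52.3% in control and 56.7 to 58.3% in Mko-3.

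The proteases of the alternative route were not called in any comparison. CFB, the protease of the alternative convertase, was at 2.54 to 2.77 FPKM in control, 1.84 to 2.41 in Ako-3 and 1.5 to 1.73 in Mko-3. In log2 this was -0.39 in Ako-3 (adjusted p = 0.016) and -0.75 in Mko-3 (adjusted p = 3.1e-05). CFD, the protease that cleaves factor B, was at 16.8 to 19.5 FPKM in control, 18.1 to 21.4 in Ako-3 and 13.1 to 14.7 in Mko-3, which is 0.09 in log2 in Ako-3 (adjusted p = 0.47) and -0.41 in Mko-3 (adjusted p = 0.0016). CFP, which encodes the stabiliser properdin, had 1 to 11 counts per library and was not tested. In GENCODE release 44, 90.3% of the windows of the canonical CFB transcript and 54.8% of those of C2 also occur in a read-through gene over both, which had 0 counts in every library, so the levels of CFB and C2 may be understated by reads that match more than 1 gene.

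Among the terminal genes, C8B fell in both clones while C6 and C7 rose in Ako-3. C8B, which encodes the beta chain of C8, a part of the membrane attack complex, lies at chr1:56929210-56966140. It was at 20.5, 15.9 and 19.9 FPKM in the control libraries, at 8.14, 8.58 and 8.19 in Ako-3, and at 7.24, 6.56 and 6.21 in Mko-3. All clone libraries were below all control libraries, and the fitted change in log2 was -1.18 ± 0.10 in Ako-3 (adjusted p = 4.6e-09) and -1.5 ± 0.10 in Mko-3 (adjusted p = 1.3e-10). C8A, the alpha chain, whose gene is the neighbour of C8B on the other strand, was at 15.6 to 20.2 FPKM in control, 16.9 to 17.6 in Ako-3 and 13 to 14.1 in Mko-3. For C8A the log2 estimate was -0.07 in Ako-3, with a 95% interval of -0.25 to 0.10, and -0.44 in Mko-3 (adjusted p = 0.0004). The ratio of C8A to C8B was 0.905 to 1.01 in control, 2.04 to 2.17 in Ako-3 and 1.87 to 2.14 in Mko-3, so it was higher in every clone library than in any control library.

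C8G, the gamma chain, was called between the clones and not against control. It lies at chr9:136945185-136946975 and was at 7.16, 5.51 and 6 FPKM in control, at 11.3, 13.3 and 9.05 in Ako-3, and at 4.29, 4.21 and 3.66 in Mko-3. The 3 groups did not overlap. Against control the log2 fold change was 0.84 ± 0.15 in Ako-3 (adjusted p = 0.00011) and -0.63 ± 0.17 in Mko-3 (adjusted p = 0.003), both below the threshold on size. Between the clones it was -1.47 ± 0.14 (adjusted p = 2.5e-14) and was called. The ratio of C8G to C8B was 0.301 to 0.35 in control, 1.11 to 1.55 in Ako-3 and 0.59 to 0.643 in Mko-3.

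C6 and C7, which join C5b at the start of the complex, rose from low levels. C7, at chr5:40909252-40982939, was at 0.458, 0.251 and 0.536 FPKM in control, at 0.913, 1.06 and 1.08 in Ako-3, and at 0.526, 0.389 and 0.485 in Mko-3. Ako-3 was above both other groups, which overlapped. The fit gave 1.26 ± 0.23 in log2 in Ako-3 (adjusted p = 0.00012), 0.14 in Mko-3 (adjusted p = 0.7) and -1.13 ± 0.20 between the clones (adjusted p = 1.6e-06). C6, its neighbour at chr5:41142234-41261438, was at 0.236, 0.29 and 0.382 FPKM in control, at 0.496, 0.677 and 0.665 in Ako-3, and at 0.261, 0.429 and 0.397 in Mko-3. The log2 fold change of C6, 1.01 ± 0.27 in Ako-3 (adjusted p = 0.0034), was barely past the threshold on size, and it was 0.85 without control replicate 1, 0.99 without control replicate 2, 0.94 without Ako-3 replicate 2 and 0.96 without Ako-3 replicate 3, in each of which it was not called. C6 had 21 to 64 counts and C7 20 to 110 counts per library. C5, which is cleaved to start the terminal route, was at 53.4 to 62 FPKM in control, 72.2 to 79.5 in Ako-3 and 51.5 to 55.5 in Mko-3, or 0.34 in log2 in Ako-3 (adjusted p = 0.00024) and -0.16 in Mko-3 (adjusted p = 0.039). C9, whose product forms the ring of the pore, had at most 2 counts in any library.

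**Figure D3:**
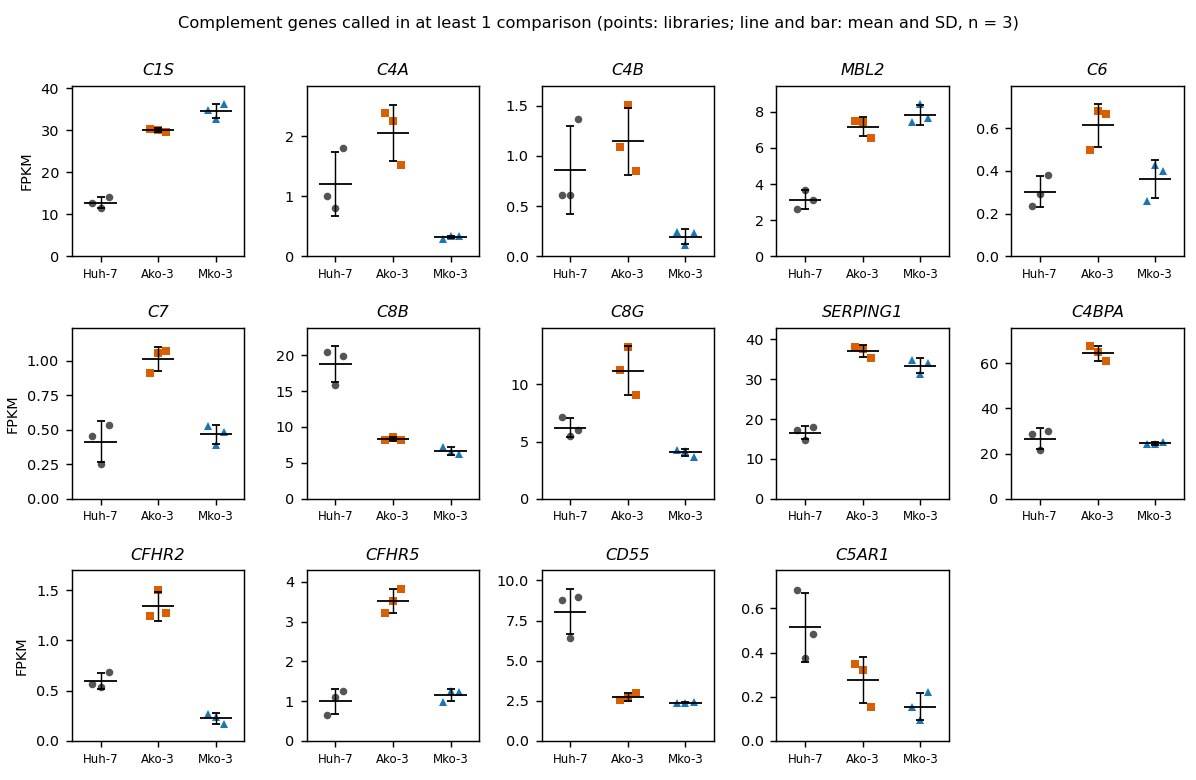
Level in FPKM of the 14 complement genes called in at least 1 comparison, with a point per library and the mean and SD of 3 libraries. C1S, MBL2 and SERPING1 are higher and C8B and CD55 lower in both clones than in control, C7, C4BPA and CFHR5 are high in Ako-3 alone, and C4A, C4B and CFHR2 are lowest in Mko-3.

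The soluble regulators gave 4 of the 8 genes called higher in Ako-3 and 0 of those called higher in Mko-3. At the adjusted p alone, 6 of the 8 tested were higher and 0 lower in Ako-3 (25.5% and 24.4% of all genes). In Mko-3, 2 were higher, SERPING1 and VTN, and 3 lower (26.9% and 27.1% of all genes). SERPING1, which encodes the inhibitor of C1R and C1S, lies at chr11:57597387-57614853. It was at 17.1, 14.8 and 18 FPKM in control, at 38, 37.6 and 35.3 in Ako-3, and at 34.8, 31.4 and 34.1 in Mko-3. All clone libraries were above all control libraries. The log2 fold change was 1.15 ± 0.08 in Ako-3 (adjusted p = 2e-10) and 0.99 ± 0.08 in Mko-3 (adjusted p = 8.1e-10), where it missed the threshold on size and was called in 7 of 12 other settings, DESeq2 included (1.01).

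C4BPA and C4BPB encode the chains of C4b-binding protein, a cofactor for the breakdown of C4b, and are neighbours on the plus strand of chromosome 1. C4BPA, at chr1:207104262-207144972, was at 28.5, 21.4 and 29.9 FPKM in control, at 67.4, 64.7 and 60.9 in Ako-3, and at 24, 24.3 and 25.2 in Mko-3. Only Ako-3 stood apart. In log2 C4BPA rose by 1.27 ± 0.10 in Ako-3 (adjusted p = 2.4e-07), while the value was -0.14 in Mko-3, with a 95% interval of -0.33 to 0.06, and -1.40 ± 0.05 between the clones (adjusted p = 1.2e-36). C4BPB was at 16.3 to 20.3 FPKM in control, 19.1 to 21.7 in Ako-3 and 10.6 to 11.9 in Mko-3, which the fit put at 0.09 in log2 in Ako-3 (adjusted p = 0.39) and -0.76 in Mko-3 (adjusted p = 2.7e-07). The ratio of C4BPA to C4BPB was 1.42 ± 0.09 (SD, n = 3) in control, 3.24 ± 0.28 in Ako-3 and 2.21 ± 0.17 in Mko-3. It was raised over control in both clones, by way of a higher alpha chain in Ako-3 and a lower beta chain value in Mko-3.

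**Figure D4:**
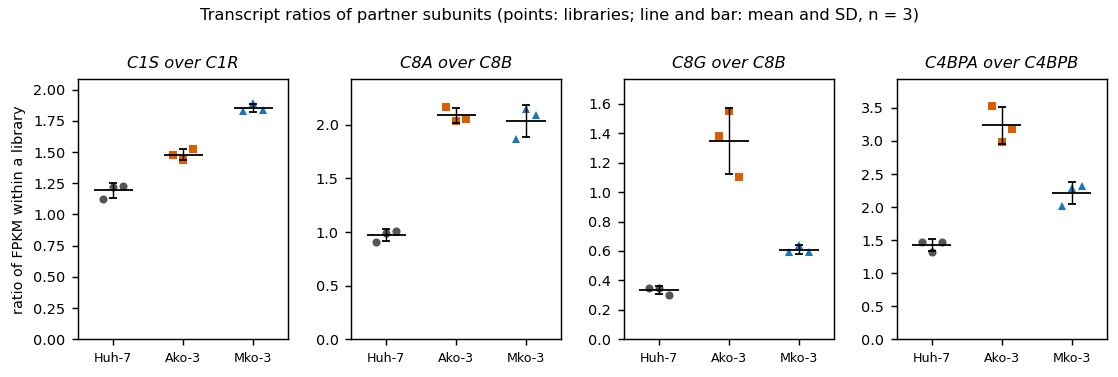
Ratio of the FPKM of partner genes within each library, with a point per library and the mean and SD of 3 libraries. All 4 ratios are higher in every library of both clones than in any control library, and C8A over C8B is the one in which the clones overlap.

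CFHR2 and CFHR5 encode plasma proteins that bind C3 fragments, and both lie in a cluster on the long arm of chromosome 1. CFHR2, at chr1:196943756-196959226, was at 0.569, 0.533 and 0.681 FPKM in control, at 1.24, 1.5 and 1.28 in Ako-3, and at 0.264, 0.242 and 0.167 in Mko-3. The groups did not overlap, with Ako-3 above and Mko-3 below control. For CFHR2 the log2 change was 1.16 ± 0.25 in Ako-3 (adjusted p = 0.00059), -1.40 ± 0.37 in Mko-3 (adjusted p = 0.0033) and -2.56 ± 0.32 between the clones (adjusted p = 1.6e-10). In Mko-3 it had 6 to 11 counts per library, so that it passed the filter through the other group. CFHR5, at chr1:196977556-197009674, was at 0.644, 1.1 and 1.25 FPKM in control, at 3.22, 3.52 and 3.81 in Ako-3, and at 0.979, 1.27 and 1.22 in Mko-3. The rise of CFHR5 in Ako-3, 1.82 ± 0.20 in log2 (adjusted p = 2.1e-07), was the largest rise of any member, on 34 to 197 counts per library, while in Mko-3 it was 0.21 (adjusted p = 0.5), and between the clones it was -1.61 ± 0.16 (adjusted p = 7.6e-14). CFHR4 had 2 to 14 counts and CFHR3 had 0 counts in every library, where the floor of 3 counts stands for 0.149 to 0.205 CPM, counts scaled to library size. Of the windows of the canonical CFHR2 transcript, 1.93% also occur in another gene.

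VTN and CLU, the most abundant soluble regulators, and the less abundant CFI did not change by the threshold on size. VTN, which encodes vitronectin, an inhibitor of the membrane attack complex, was at 374 to 423 FPKM in control, 572 to 638 in Ako-3 and 535 to 573 in Mko-3, or 0.61 in log2 in Ako-3 (adjusted p = 1.2e-07) and 0.48 in Mko-3 (adjusted p = 7.2e-07). CLU, which encodes clusterin, another inhibitor of the complex, was at 292 to 339 FPKM in control, 302 to 318 in Ako-3 and 214 to 222 in Mko-3, or -0.01 in log2 in Ako-3 (adjusted p = 0.95) and -0.53 in Mko-3 (adjusted p = 1.9e-07). CFI, the protease that inactivates C3b and C4b, was at 8.79 to 9.4 FPKM in control, 10.1 to 10.9 in Ako-3 and 7.96 to 8.5 in Mko-3, or 0.19 in log2 in Ako-3 (adjusted p = 0.043) and -0.16 in Mko-3 (adjusted p = 0.094). Of its windows, 77.3% occur in an overlapping gene with 0 counts in every library. All 8 tested soluble regulators were lower in Mko-3 than in Ako-3 at the adjusted p alone, where 20.6% of all genes were. The same was true of all 6 tested terminal genes.

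The membrane regulators differed from one another. CD55, which speeds the decay of the convertases on the cell's own surface, lies at chr1:207321376-207386804. It was at 8.78, 6.43 and 8.98 FPKM in control, at 2.54, 2.71 and 2.99 in Ako-3, and at 2.37, 2.39 and 2.41 in Mko-3. All clone libraries were below all control libraries, and in log2 CD55 was at -1.56 ± 0.12 in Ako-3 (adjusted p = 1.7e-08) and at -1.77 ± 0.11 in Mko-3 (adjusted p = 2.6e-10). Between the clones it was -0.21 (adjusted p = 0.094). CD46, a cofactor for the cleavage of C3b and C4b and a neighbour on the same chromosome, was at 45.3 to 48 FPKM in control, 38.1 to 42.7 in Ako-3 and 36.8 to 38.7 in Mko-3, which is -0.18 in log2 in Ako-3 (adjusted p = 0.019) and -0.31 in Mko-3 (adjusted p = 0.00014). CD59, which blocks the last step of pore formation, was at 5.6 to 6.47 FPKM in control, 4.84 to 5.43 in Ako-3 and 8.89 to 10 in Mko-3. The CD59 groups did not overlap, and in log2 it was at -0.25 ± 0.08 in Ako-3 (adjusted p = 0.011), 0.62 ± 0.07 in Mko-3 (adjusted p = 4.2e-07) and 0.87 ± 0.06 between the clones (adjusted p = 2.5e-22), each below the threshold on size.

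Of the receptors, C5AR1, the receptor of C5a, was called in Mko-3. It lies at chr19:47290023-47322066 and was at 0.685, 0.377 and 0.484 FPKM in control, at 0.348, 0.323 and 0.155 in Ako-3, and at 0.152, 0.0956 and 0.22 in Mko-3. Both clones were below control and overlapped with each other. The fit put C5AR1 in log2 at -0.91 ± 0.37 in Ako-3 (adjusted p = 0.044) and at -1.76 ± 0.41 in Mko-3 (adjusted p = 0.00098), on 5 to 38 counts per library. In Mko-3 it had 5 to 10 counts, so that it passed the filter through the control group, and it was not tested when 10 counts were required in every library. In Ako-3 it was called lower when control replicate 2 (-1.08) or Ako-3 replicate 1 (-1.09) was left out. The threshold on the adjusted p was missed without control replicate 1 (-0.65, adjusted p = 0.22) or Ako-3 replicate 3 (-0.63, adjusted p = 0.21). It was also missed without control replicate 3 (0.08) or Ako-3 replicate 2 (0.064), without the filter on low counts (0.062) and in DESeq2 (0.15). With DESeq2 size factors in edgeR, the replicate block or the fit over all 9 libraries, the adjusted p was 0.044 to 0.046. C3AR1, the receptor of C3a, had at most 1 count in any library.

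Other genes tied to complement were counted in the same way, against the same shares over all genes. Of 30 further complement genes, 15 were tested in Ako-3 against control, with 1 called higher and 0 lower, and 13 in Mko-3 against control, with 0 called in either direction. At an adjusted p alone, 7 were higher and 2 lower in Ako-3 (25.5% and 24.4% of all genes). In Mko-3, 2 were higher and 4 lower (26.9% and 27.1% of all genes). The gene called in Ako-3 was A2M, a broad protease inhibitor of plasma, with a log2 fold change of 1.54 (adjusted p = 2.3e-08). Between the clones A2M was the 1 gene called, lower in Mko-3 at -2.46 (adjusted p = 1.4e-43). C1QA and C1QC, which encode chains of the recognition protein of the classical route, had 0 counts and C1QB at most 2.

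Of 25 factors, receptors and signal proteins known to act on complement transcription, 24 were tested. In Ako-3, 0 were called higher and 1 lower, NR3C1 at -1.25 (adjusted p = 5.1e-08). In Mko-3, 0 were called higher and 3 lower, which were CEBPB at -1.29 (adjusted p = 2.6e-12), SOCS3 at -1.19 (adjusted p = 1.9e-08) and NR3C1 at -1.02 (adjusted p = 6.4e-08). At an adjusted p alone, 3 were higher and 11 lower in Ako-3 (25.5% and 24.4% of all genes). In Mko-3, 6 were higher and 14 lower (26.9% and 27.1% of all genes). NR3C1 encodes the glucocorticoid receptor, CEBPB a C/EBP factor of the acute phase and SOCS3 an inhibitor of cytokine signalling. Between the clones 0 were called, with 9 higher and 10 lower at the adjusted p alone (21.1% and 20.6% of all genes). The part of these genes, of the hepatocyte markers and of the mitochondrial share in the members' values was not tested. Among the hepatocyte markers, AHSG was called lower in Mko-3 than in Ako-3, at -1.86 (adjusted p = 2e-15). At the adjusted p alone 7 of the 9 were lower and 2 higher, where 20.6% of all genes were lower and 21.1% higher. Of the endothelial markers, PECAM1 was called lower in Mko-3 than in Ako-3, at -1.05 (adjusted p = 4.3e-27). CDH5 was higher there at the adjusted p alone, at 0.61 (adjusted p = 0.0026).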

How the data were processed

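RNA sequencing of 9 libraries was analysed, 3 each of Huh-7 control, Ako-3 and Mko-3 cells, grouped by their labels. The authors aligned the paired reads to hg38 with HISAT2 2.0.5 and deposited raw counts per gene from featureCounts 1.5.0-p3. The annotation release and the strand setting are not given in the sources used here. The authors also deposited FPKM, and from the values these are the counts divided by the deposited gene length and by a DESeq2 size factor over all 9 libraries, so they are scaled together. 

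Each comparison was fitted on its 6 libraries with edgeR 4.0.16 in R 4.3.3 (TMM factors, genes kept by filterByExpr with its minimum count set to 10, and the robust quasi-likelihood F test). Calls needed a log2 fold change of 1 or more in size together with an adjusted p, by Benjamini and Hochberg over all genes tested, of 0.05 or less. The SE is the size of the log2 fold change divided by the square root of F, and a 95% interval is 1.96 SE to each side. DESeq2 1.42.0 was an alternative, beside its size factors in edgeR, other filters on low counts, 1 fit over all 9 libraries, the replicate number as a block, the adjusted p alone and leaving out each library. The fits were also run on simulated data, with a single fixed spread and changes above the threshold on size in genes above a minimum count. That run does not cover members with few counts or with a change near the threshold. A gene at no more than 3 counts in every library of a group was treated as at the floor. Intervals and floors cover the spread of these libraries and counting error only. Chi-square over its degrees of freedom was 6.93 to 8.88 between pairs of control libraries. It was 3.12 to 3.45 between pairs of Ako-3 and 2.43 to 2.84 between pairs of Mko-3 libraries. The fit between the clones leaves out the control libraries, so its SEs and p-values rest on another spread than those against control.

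The 36 members, the other gene lists and the motifs were chosen with earlier results of these data known. All members are accounted for, and of the other lists the called genes are named, at most 4 per comparison by adjusted p. Of the lists as first written, 2 genes are not reported here. Gene positions are those of the files. Promoters came from RefSeq (GRCh38.p14), with 24 of the 36 members matched, and transcripts from GENCODE release 44, in which shared windows of 150 bases were counted. Same-numbered libraries of different groups did not deviate together (correlations of -0.084 to 0.069), so replicate numbers were not used as pairs.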

Additional observations from a re-analysis of the deposited data

Results flagged for a closer look

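In 7 members Ako-3 and Mko-3, each 1 clone of a different knockout, differed from each other in edgeR's fit of Mko-3 against Ako-3 (log2 fold change at least 1 in size, adjusted p at most 0.05). The log2 fold change of Mko-3 against Ako-3 was -2.68 for C4A, -2.57 for C4B and -2.56 for CFHR2. CFHR2 had 6 to 11 counts per library in Mko-3 and passed the filter on counts through Ako-3. The log2 fold change was -1.61 for CFHR5, -1.47 for C8G, -1.40 for C4BPA and -1.13 for C7. All 7 were lower in Mko-3. Against control, C8G and CFHR2 lay above in Ako-3 and below in Mko-3, CFHR5, C4BPA and C7 were called in Ako-3 alone, and C4A and C4B were called in Mko-3 alone. The summed hepatocyte markers were also lower in Mko-3 (4887 to 5112 FPKM) than in Ako-3 (5869 to 6158 FPKM), and their part in these differences was not tested.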

How the results depend on the processing

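Counts of called members stayed within 1.5 times the reported ones in all settings except the adjusted p alone, which dropped the threshold on size. Under it 14 members were higher and 7 lower in Ako-3, 8 higher and 16 lower in Mko-3, and 4 higher and 22 lower in Mko-3 against Ako-3. Leaving out 1 library gave 7 to 9 higher and 2 to 3 lower in Ako-3, 2 to 3 higher and 6 lower in Mko-3, and 0 higher and 7 lower between the clones. Requiring 10 counts in every library left 4 lower in Mko-3 and 6 between the clones, since CFHR2 and, in Mko-3 against control, C5AR1 were no longer tested. Over all genes this filter left 359 higher and 482 lower in Ako-3 (556 and 789 as reported), 696 lower in Mko-3 (1137), and 193 higher and 318 lower between the clones (351 and 539). With the replicate number as a block, the replicate block gave 8 higher and 2 lower in Ako-3, 2 and 6 in Mko-3 and 0 and 7 between the clones, as in the fit without it. No log2 fold change of a called member was reversed in any setting. Where a called member was still tested, the only call lost was that of C6 in Ako-3, in 4 of the 6 fits without 1 library. Members uncalled at first were called in 10 fits: SERPING1 in Mko-3 in 7, C5AR1 in Ako-3 in 2 and C4A in Ako-3 in 1. Depth limits C6, C7, C4A, C4B, C8G, CFB, CFHR2, CFHR5, C5AR1 and MASP2, which had at most 324 counts in any library.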
